A study of Mus musculus with 5 samples.

Results

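Heat shock proteins and their cochaperones were followed in long-term haematopoietic stem cells (LT-HSCs) of mice that had lost Lrf, the transcription factor encoded by Zbtb7a. Members were the genes whose symbol begins with Hsp, Dnaj or Hsf, without the proteoglycan gene Hspg2, and that had at least 1 probe set annotated to them alone. There were 77 such genes among 18193 genes with a single-gene probe set on the array, and each was represented by its probe set with the highest mean. Of these, 67 lay above the log2 level of 5.77, below which the dimmest 40% of probe sets fall, and were tested. The other 10 (Dnajb13, Dnajb3, Dnajb7, Dnajc5g, Hsf2, Hsfy2, Hspa1l, Hspb3, Hspb7 and Hspb9) lay below it and are not described further. Hsf1 and Hsp90ab1 were not analysed here.

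The 2 control samples came from Zbtb7a Flox/+ Mx1-Cre+ mice (heterozygous for Lrf) and the 3 knockout samples from Zbtb7a Flox/Flox Mx1-Cre+ mice. All mice were on the C57BL/6 background and 4 weeks old. They received pIpC, a double-stranded RNA analogue, as 2 injections of 250 µg, and cells were taken on day 9 after the first. Controls thus shared the Cre transgene, the pIpC and 1 floxed allele with the knockouts. Cre was driven by the interferon-inducible Mx1 promoter, which is active in many blood and other cells and not in stem cells alone. The sort took cells without lineage markers that carried Sca-1, Kit and CD150 and lacked IL7Ra, Flt3 and CD48. The label of knockout replicate 3 names 2 animals, so it may be a pool. Nothing else in the labels says how the samples of a group relate, so the tests measure the spread between these arrays only.

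Chaperones of the Hsp70 class bind unfolded stretches of protein and release them in cycles of ATP hydrolysis. J-domain proteins, encoded by the Dnaj genes, deliver substrates and start the hydrolysis, and nucleotide exchange factors such as Hsp110 end the cycle. Hsp90 takes over clients such as kinases and hormone receptors, and the Hsp60 and Hsp10 chaperonin folds proteins inside mitochondria. Heat, oxidation, poisons and rough handling of cells activate heat shock factor 1 (HSF1), which binds heat shock elements and switches on inducible chaperone genes within minutes. A separate unfolded protein response raises the chaperones of the endoplasmic reticulum.

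Median log2 intensities of the 5 arrays lay between 6.38 and 6.40. Knockout replicate 2 stood apart, with correlations to the other arrays across all probe sets of 0.945 to 0.970 against 0.977 to 0.990 among the other pairs. Its difference between 3' and 5' probe sets, a measure of RNA length, was 3.85 for Actb against 4.90 to 5.21 elsewhere. Of 8 genes of the sorting gate, 7 were matched and all were above the filter. In that array Kit read 9.60 against 11.12 to 11.82 elsewhere and Slamf1, which encodes CD150, read 6.60 against 8.06 to 9.16. Cd48, whose protein the sort excluded, read 9.97 there against 7.87 to 8.59. Procr and Cd34 were also lowest in that array, at 7.62 and 7.80, while Flt3 read 8.56, within the range of 8.25 to 9.50 elsewhere. Il7r, whose protein the sort also excluded, read 6.21 and 7.30 in controls and 9.35, 10.50 and 7.44 in knockouts, so knockout replicate 1 was high too. Whether knockout replicate 2 holds the labelled cell population is therefore in doubt. Markers of other cell types above the filter were also compared. Knockout replicate 2 lay at least 1 above every other array for 3 of 6 mast cell and basophil genes. It did so for 4 of 6 lymphocyte, 2 of 9 neutrophil and granulocyte progenitor and 1 of 6 erythroid genes, against 3.6% of all genes. Of the lymphocyte genes, Klrd1 read 9.55 there and 4.57 to 6.22 elsewhere, and passed the filter only through that array. At least 1 below every other array were 3 of 6 megakaryocyte and 2 of 10 macrophage genes, against 3.83% of all genes. Macrophage genes lay below both controls in all 3 knockouts for 7 of 10, against 4.5% of all genes. The log2 of the summed level of the 10 was 15.01 and 13.95 in the controls and 12.21, 13.73 and 13.64 in knockouts 1, 2 and 3. In knockout replicate 2, Csf1r had its highest value, 13.19, and made up most of that sum. Csf1r, Adgre1 and Cd68 lay above the mean of the other arrays there, and the other 7 lay below it. Interferon response genes lay above both controls in all 3 knockouts for 6 of 7, against 2.68% of all genes. The exception, Rsad2, was the brightest of the 7 on every array. It read 13.23 and 10.73 in controls and 13.11, 13.69 and 10.67 in knockouts. Rsad2 therefore weighed most in the summed levels, which were 13.39 and 11.64 against 14.52, 13.92 and 11.79 and do not describe the other 6. Each of those 6 was highest in knockout replicate 1. Ifit1 read 8.04 and 8.37 in controls and 12.11, 8.46 and 8.51 in knockouts 1, 2 and 3. Mx1 read 5.47 and 6.32 in controls and 10.77, 7.30 and 7.14 in knockouts 1, 2 and 3. The part of these genes in the results on chaperones was not tested. None of the 3 probe sets of Zbtb7a, the targeted gene, passed the test of knockout against control (log2 differences of 0.41, -0.36 and -0.05; limma adjusted p = 1 for each). Where they lie relative to the deleted part was not analysed here. Without knockout replicate 2 the difference between knockout and control took the other sign for 15 of the 67 chaperone genes, so values without it are given where they turn or move the result.

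The question of knockout against control was whether chaperone transcripts changed with loss of Lrf. In the limma fit over 27022 probe sets, 0 of the 67 members passed an adjusted p under 0.05, with 0% of all 12813 genes passing in either direction. At an unadjusted p under 0.05 the counts were 0 of 67 members and 123 of 12813 genes (0.96%), or 1.13% of probe sets. The median log2 difference was 0.016 over the members and -0.031 over all genes. All 3 knockouts lay above both controls for 4 members, against 2.68% of all genes, and below both controls for 0 members, against 4.5%. The 4 were Hspa1a, Hspa5, Dnajb6 and Dnajb11, and none of them passed the test. For Hspa5 and Dnajb6 this depends on the probe set, since some others above the filter overlapped between the groups and some did not. Differences over their probe sets ranged from 0.035 to 0.245 for Hspa5 and from -0.060 to 0.51 for Dnajb6. With cyclic loess, which evens out array differences at each intensity, 6 members lay above and 2 below. The shares of all genes with that scaling are not given, so these counts cannot be set against a background. Fewer arrays allow fewer orders, so counts without 1 array are larger throughout. Without control replicate 1 they were 13 above and 12 below (16.3% and 29% of all genes), and without control replicate 2 they were 16 and 11 (15.1% and 15.5%). Without knockout replicate 1 they were 5 and 1 (4.72% and 7.03%), and without knockout replicate 3 they were 8 and 2 (6.92% and 10.1%).

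The stress-inducible Hsp70 genes Hspa1a and Hspa1b varied most between arrays. They encode nearly the same protein, are silent or low in unstressed cells and are the classical targets of HSF1. Because of this likeness, cross-hybridisation between their probe sets cannot be told apart from expression of both. RefSeq (GRCm38.p6) places them on chromosome 17 of the mouse. The 160 bases before each start are shown because they hold the heat shock element of the members with the largest differences, for Hspa1a at chr17:34972157-34972316 and for Hspa1b at chr17:34959239-34959398, both on the minus strand and written 5' to 3' along the gene. Capitals mark 2 inverted units of the element, GAANNTTC, whose first base lies at position -104 in both.
Hspa1a: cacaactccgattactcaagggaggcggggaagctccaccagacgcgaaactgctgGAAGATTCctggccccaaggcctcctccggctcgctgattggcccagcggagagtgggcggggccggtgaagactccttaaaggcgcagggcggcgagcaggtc
Hspa1b: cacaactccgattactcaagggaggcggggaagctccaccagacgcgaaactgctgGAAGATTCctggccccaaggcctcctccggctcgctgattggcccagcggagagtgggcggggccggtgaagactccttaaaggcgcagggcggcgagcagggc
Both windows were the same at 159 of 160 positions (99.4%), with the single difference near the start site.

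Hspa1a read 5.38 and 5.69 in controls 1 and 2, and 7.03, 12.96 and 5.79 in knockouts 1, 2 and 3. Only knockout replicate 2 was far from the rest, while both controls lay below the level taken as near background and knockout replicate 3 only just above it. Hspa1b read 6.05 and 8.74 in the controls and 11.12, 13.40 and 7.92 in the knockouts. Its values spread over the whole range, with knockout replicate 3 below control replicate 2, so the groups overlapped. The other 2 probe sets of Hspa1b gave the same order of arrays, at 5.34, 7.12, 9.31, 12.40 and 6.40 and at 4.66, 6.21, 8.52, 11.90 and 5.75 in controls 1 and 2 and knockouts 1, 2 and 3.

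Knockout against control, the log2 difference was 3.42 (SE 1.83) for Hspa1b and 3.06 (SE 2.29) for Hspa1a, both with a limma adjusted p of 1. The group means of Hspa1b were 7.40 ± 1.90 (SD, n = 2) and 10.81 ± 2.75 (SD, n = 3). Those of Hspa1a were 5.54 ± 0.22 (SD, n = 2) and 8.60 ± 3.83 (SD, n = 3). Without knockout replicate 2 the differences were 2.12 and 0.875, and without control replicate 1 they were 2.07 and 2.90. The Hspa1b difference thus depended on single arrays in both groups, and no setting gave a call. With array weights in limma the Hspa1a difference was 1.49.

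Set against the mean of the other 4 arrays, knockout replicate 2 was 6.99 higher for Hspa1a and 4.94 higher for Hspa1b (30.7-fold) on the log2 scale. These are differences of 1 library, with no replicate and no test, and no fold is given for Hspa1a because 3 of the other 4 values lay below or just above the filter level. Immediate early genes, which respond to stress and handling, were high in the same array. All 10 of the 10 members above the filter (12 were listed and matched) lay at least 1 above every other array, against 3.6% of all genes. Fos read 14.04 there against 6.96 to 7.23. The log2 of their summed level was 11.50 and 11.78 in the controls and 11.32, 15.48 and 11.19 in knockouts 1, 2 and 3. In knockout replicate 1, where Hspa1b read 11.12, the immediate early genes were split. Jun, Atf3 and Klf4 lay above both controls, while Egr1, Ier2, Dusp1 and Zfp36 lay below, as did the summed level. The part of the immediate early genes in the Hspa1a and Hspa1b values was not tested.

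**Figure D1:**
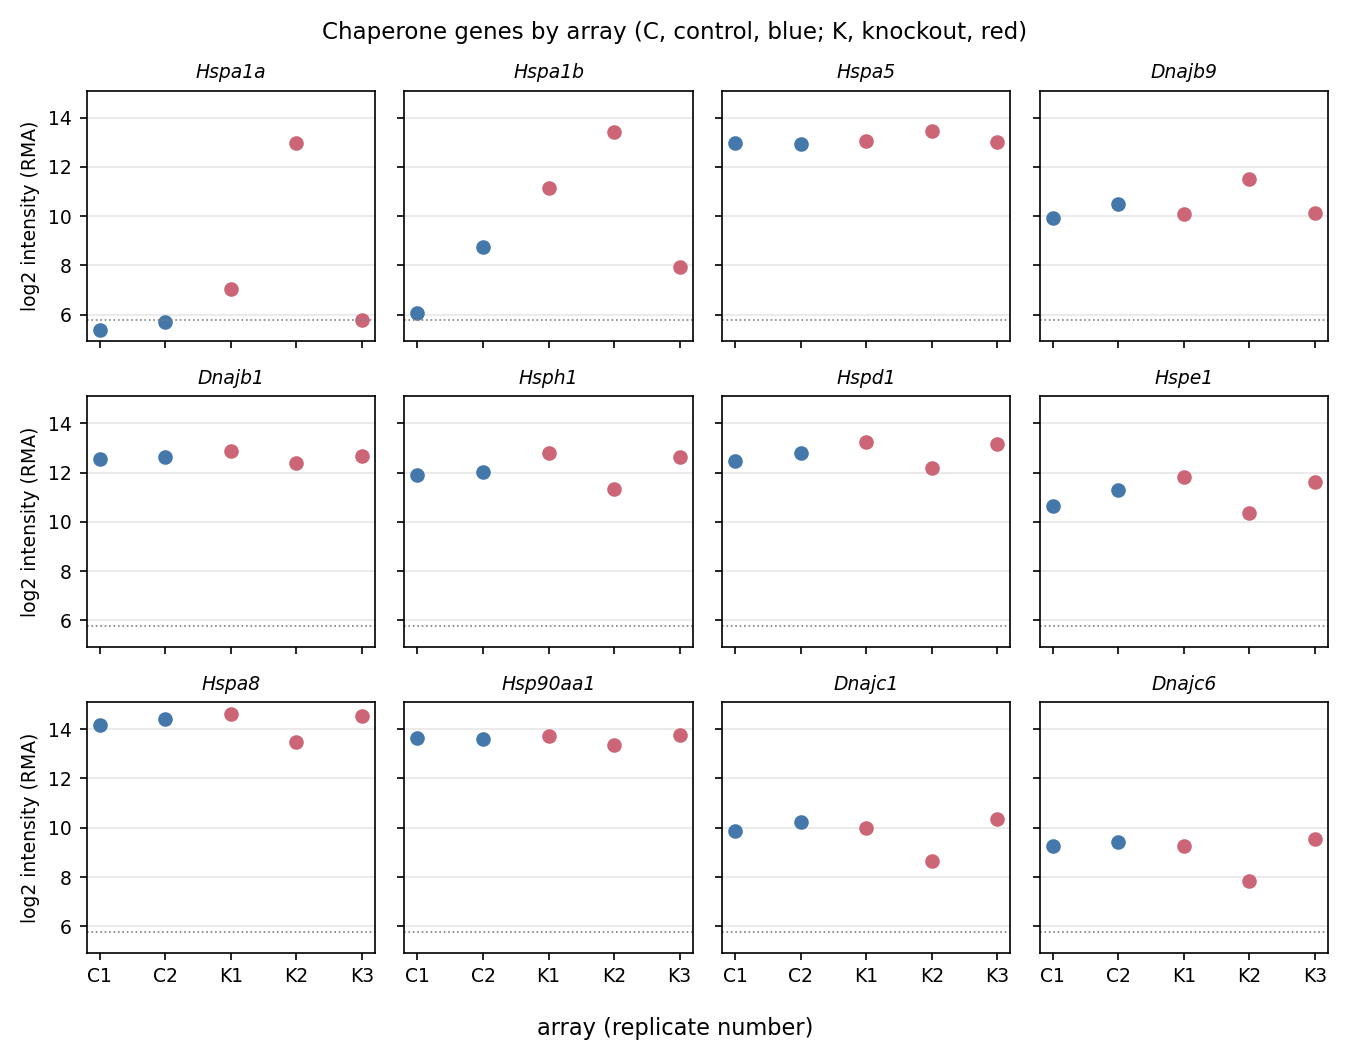
Log2 intensity (vertical axis) of 12 chaperone genes in each array (horizontal axis; C1 and C2, controls, blue; K1 to K3, knockouts, red), with the filter level of 5.77 dotted. Hspa1a and Hspa1b reach 12.96 and 13.40 in knockout replicate 2, where Hsph1, Hspd1, Hspe1, Hspa8, Dnajc1 and Dnajc6 have their lowest values.

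Other inducible and constitutive chaperones of the cytosol read differently from Hspa1a and Hspa1b. Hsph1, an Hsp110 nucleotide exchange factor that is itself heat-inducible, read 11.89 and 12.03 in controls and 12.81, 11.35 and 12.62 in knockouts. Its second probe set ran the same way, at 7.24 and 7.82 and at 8.45, 6.86 and 8.58. Hspa8, the constitutive Hsc70 of the cytosol, read 14.16 and 14.41 in controls and 14.63, 13.49 and 14.55 in knockouts. Knockout replicate 2 was thus the lowest array for both genes, at -0.99 and -0.95 relative to the mean of the other 4. Hspa8 had a dim probe set that differed, at 1.09 (SE 0.59) between the groups and 0.24 in knockout replicate 2, where the brightest gave -0.061 and -0.95. Without knockout replicate 2 the difference between the groups was 0.31 for Hspa8 and 0.76 for Hsph1.

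Mitochondrial chaperones were also low in that array. Hspd1, which encodes Hsp60, read 12.48 and 12.80 in controls and 13.26, 12.18 and 13.16 in knockouts. Hspe1, its partner Hsp10, read 10.65 and 11.30 in controls and 11.83, 10.35 and 11.63 in knockouts. Hspa9, the mitochondrial Hsp70 known as mortalin, read 12.03 and 12.51 in controls and 12.51, 11.21 and 12.50 in knockouts. On the brightest probe set of all 3 the lowest array was knockout replicate 2. The differences between groups there (0.23, 0.29 and -0.20) were smaller than their SE (0.39, 0.53 and 0.48). Without knockout replicate 2 the differences were 0.57, 0.75 and 0.23, and Hspa9 in knockouts 1 and 3 did not exceed control replicate 2. Dnaja3, a mitochondrial J-domain protein, read 10.09 and 10.44 in controls and 10.73, 9.36 and 10.73 in knockouts. Probe sets disagreed on the size in knockout replicate 2, from -1.36 to 0.28 for Hspa9 and from -1.14 to -0.031 for Dnaja3. For Hspe1 they gave -1.01 and -0.45, so these values hold for the brightest. The second probe set of Hspe1 was lowest in control replicate 1, at 8.19 against 8.38 in knockout replicate 2. It differed by 0.40 (SE 0.35) between the groups.

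Hspd1 and Hspe1 lie head to head and share a promoter, so that their windows of 300 bases in RefSeq overlapped by 285 bases. Its 120 bases before the Hspe1 start, at chr1:55088028-55088147 on the plus strand, are shown to set a complete heat shock element beside the shorter one of Hspa1a. Capitals mark the run that holds 3 units (GAANNTTC followed at once by NNGAA) on both strands.
Hspe1: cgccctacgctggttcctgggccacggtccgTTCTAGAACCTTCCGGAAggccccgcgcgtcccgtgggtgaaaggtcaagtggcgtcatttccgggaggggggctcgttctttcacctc
The Hsph1 window at chr5:149636337-149636456 on the minus strand has capitals at 2 units, TTCNNGAA, and 3 units were found after the start.
Hsph1: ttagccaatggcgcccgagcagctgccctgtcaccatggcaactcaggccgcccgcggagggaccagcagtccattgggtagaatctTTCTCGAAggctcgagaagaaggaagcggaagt
In knockout replicate 2 relative to the others, the brightest probe sets of Hspe1, Hsph1 and Hspd1 gave -1.01, -0.99 and -0.74.

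Promoter windows of 250 bases before to 50 after the start were found for 63 of the 77 members, out of 27025 genes with a window. At least 1 window held 3 units, on either strand, in 4 of the 63, namely Hspd1, Hspe1, Hsph1 and Dnajb6. That was 6.35%, against 0.662% of all genes. The pair of units GAANNTTC, which is part of the longer motif and reads the same on both strands, was found in 14 of 63 (22.2%, against 9.04%). The opposite pair TTCNNGAA, which also reads the same on both strands and overlaps the longer motif, was found in 7 of 63 (11.1%, against 9.6%). Hspd1 and Hspe1 hold the same stretch of their shared promoter, which is counted for both genes in each of these motifs. The nearly identical windows of Hspa1a and Hspa1b are likewise each counted for GAANNTTC. These shares are descriptions of the letters and carry no test.

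Leaving out knockout replicate 2 changed which members separated the groups. In the 4 remaining arrays, both knockouts lay above both controls for 19 of 67 members (28.4%), against 13.9% of all genes, and below both for 1 (Dnajc4), against 13.4%. For 14 of these 19, knockout replicate 2 was the lowest of the 5 arrays, as it was for 1159 of the 1784 genes that lay above among all genes. Hsph1 differed by 0.76 (SE 0.15, 1.69-fold, unadjusted p = 0.008), Hspe1 by 0.75 (SE 0.27), Dnajc2 by 0.59 (SE 0.31) and Hspd1 by 0.57 (SE 0.17). No gene of the 67 passed (limma adjusted p = 0.955 for Hsph1), and 3 of 67 members and 529 of 12799 genes had an unadjusted p under 0.05. In the same 4 arrays with cyclic loess the counts were 15 above (15% of all genes) and 5 below (20.7%), and with median centring 18 (15.5%) and 3 (14.2%).

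By family, the members above both controls in those 4 arrays were 6 of 13 Hsp70 and Hsp110 genes, both Hsp60 and Hsp10 genes, 2 of 4 DnajA, 3 of 10 DnajB and 5 of 26 DnajC genes, 1 of 2 Hsp90 genes and 0 of 5 Hspb genes. The Hsp70 and Hsp110 genes were Hspa1a, Hspa4, Hspa5, Hspa8, Hspa14 and Hsph1. Their place above rests on the brightest probe set. Other probe sets above the filter overlapped or tied with the controls in these 4 arrays for Hspa4, Hspa5 and Hspa14. The second brightest of Hspa4 read 11.36 and 12.16 in controls and 11.58 and 11.92 in knockouts 1 and 3. For Hspa8 and Hsph1 the other probe sets above the filter also lay above both controls. Probe sets of Hspa4 ranged from -1.27 to 0.33 in knockout replicate 2. Hspa4 and Hsph1 are exchange factors for Hsp70, and Hspa14 pairs with Dnajc2 on the ribosome. Dnajc2, the ribosome-associated J-domain protein, read 10.28 and 11.07 in controls and 11.23, 9.53 and 11.31 in knockouts. Control replicate 2 lay closer to knockouts 1 and 3 than to control replicate 1, so the separation was narrow. Of the interferon response genes, 6 of 7 lay above both controls in these arrays, against 13.9% of all genes. All 6 were highest in knockout replicate 1. Of the macrophage genes, 9 of 10 lay below, against 13.4%.

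**Figure D2:**
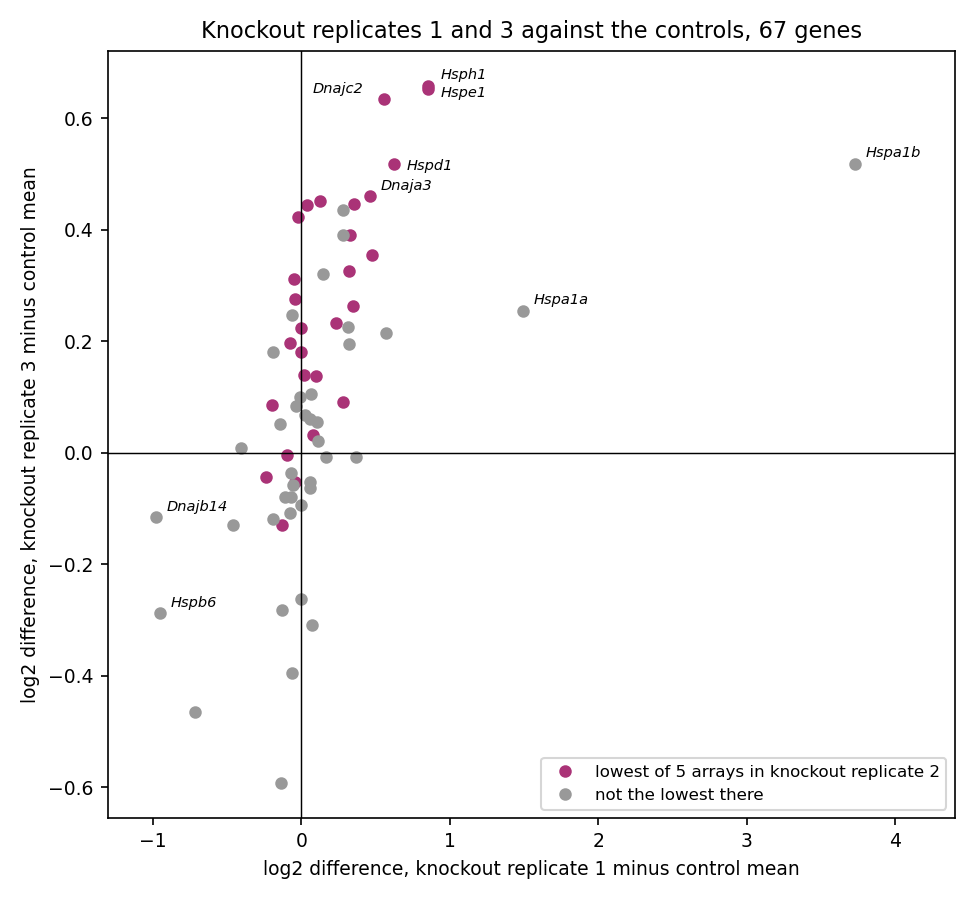
Log2 difference from the control mean of knockout replicate 1 (horizontal axis) and replicate 3 (vertical axis) for 67 chaperone genes, 1 point each. Hsph1, Hspe1, Hspd1 and Dnajc2 lie near the top, among genes that were lowest in knockout replicate 2 (purple), and Hspa1b lies at 3.73 on the horizontal and 0.52 on the vertical axis.

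Chaperones of the endoplasmic reticulum read in both directions in knockout replicate 2. Hspa5, the Hsp70 known as BiP, read 12.96 and 12.92 in controls and 13.04, 13.47 and 12.99 in knockouts. Its difference was 0.23 (SE 0.20), and without knockout replicate 2 it was 0.079. Dnajb9, a J-domain protein of the unfolded protein response, read 9.91 and 10.48 in controls and 10.09, 11.49 and 10.12 in knockouts, with 1.34 for knockout replicate 2 relative to the others. Its group difference was 0.37 with that array and -0.093 without it. Dnajb11, another BiP partner, was the member with the smallest unadjusted p, 0.097 in limma (adjusted p = 1). It read 9.37 and 9.52 in controls and 9.73, 9.66 and 9.88 in knockouts, a difference of 0.31 (SE 0.15). This gene differed little between the knockouts, and its difference stayed between 0.24 and 0.38 as single arrays were left out.

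Other members of that compartment did not share the high value of Dnajb9 in knockout replicate 2. Hsp90b1, or Grp94, read 11.45 and 11.69 in controls and 11.38, 11.68 and 11.45 in knockouts. In knockout replicate 2 this probe set gave 0.18 relative to the others. Its second probe set was lowest in that array, at 10.62, and gave -0.63, so the direction depends on the probe set. Dnajc3, which inhibits the kinase PERK, read 9.95 and 10.38 in controls and 9.96, 9.60 and 10.25 in knockouts. Dnajc10, an ER reductase, read between 10.87 and 11.13 on every array. Dnajc1, an ER membrane J-domain protein, read 9.87 and 10.24 in controls and 10.01, 8.65 and 10.37 in knockouts, with -1.47 for knockout replicate 2 relative to the others. Its probe sets ranged from -1.47 to -0.034 there, so that size rests on the probe set chosen. Its group difference was -0.38 with that array and 0.13 without it.

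The element of the unfolded protein response, CCAAT and CCACG with 9 bases between them on either strand, was found in windows of 3 of 63 members (4.76%), Hspa5, Hsp90b1 and Dnajc3, against 0.137% of all genes. The 120 bases before the Hspa5 start at chr2:34771970-34772089 on the plus strand are shown with it in capitals.
Hspa5: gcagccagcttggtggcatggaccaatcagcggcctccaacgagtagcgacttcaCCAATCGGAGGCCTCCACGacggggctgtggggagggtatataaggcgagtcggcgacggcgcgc
Of these 3 genes, Hspa5 alone was higher in knockout replicate 2 than in every other array.

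In the cytosol, probe sets of the same gene often differed. Hsp90aa1, the inducible cytosolic Hsp90, read 13.63 and 13.61 in controls and 13.71, 13.36 and 13.75 in knockouts. Its 2 dimmer probe sets above the filter gave -1.001 and -1.12 in knockout replicate 2 where the brightest gave -0.32. Dnajb1, the Hsp40 that HSF1 induces together with Hsp70, had 2 probe sets that disagreed. The brightest read 12.54 and 12.62 in controls and 12.86, 12.40 and 12.68 in knockouts, with knockout replicate 2 lowest. The dimmer one read 8.07 and 7.99 in controls and 8.44, 9.38 and 8.39 in knockouts, with knockout replicate 2 highest. A direction for Dnajb1 in that array therefore depends on the probe set. Dnajb6, which suppresses aggregation, read 10.85 and 10.94 in controls and 10.96, 11.23 and 11.002 in knockouts (difference 0.17, SE 0.16, and 0.086 without knockout replicate 2). Dnajb4, another cytosolic Hsp40, had probe sets from -0.27 to 0.75 in knockout replicate 2.

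The remaining J-domain genes spanned log2 differences of -0.46 (Dnajb14) to 0.43 (Dnaja4) between the groups, and the value for Dnaja4 was 0.09 without knockout replicate 2. Dnaja1, a cytosolic J-domain protein of Hsp70, read 11.74 and 12.35 in controls and 12.62, 12.01 and 12.26 in knockouts. Dnaja4 read 8.86 and 8.11 in controls and 8.42, 9.58 and 8.73 in knockouts, and Dnajb2 read 9.66 and 8.42 against 8.33, 9.89 and 8.58. In both, knockout replicate 2 was highest and control replicate 1 second. Dnajc6, or auxilin, which uncoats clathrin vesicles with Hsc70, read 9.24 and 9.41 in controls and 9.25, 7.85 and 9.53 in knockouts, a difference of -0.45 with knockout replicate 2 and 0.059 without it. Dnajc7 differed by 0.36 (SE 0.21), and Dnajc8, a splicing-associated member, read 12.77 to 12.92 on every array.

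Of genes with an Hspb symbol, 5 lay above the filter. Hspb11 is an intraflagellar transport subunit despite its symbol, and the other 4 encode small heat shock proteins, which hold unfolded proteins without ATP. These 4 gave negative differences, with a median of -0.29, while 56.3% of all genes were negative and their median was -0.031. Hspb2 was at -0.004. Without knockout replicate 2 all 4 were still negative, with a median of -0.30. Hspb6 read 7.45 and 6.78 in controls and 6.16, 6.75 and 6.83 in knockouts (difference -0.53, SE 0.32). Hspb8 read 7.01 and 6.66 in controls and 6.70, 6.38 and 6.24 in knockouts (difference -0.39, SE 0.22). Hspb1, the Hsp27 gene and a known HSF1 target, read 7.49 and 7.36 in controls and 7.36, 7.36 and 7.03 in knockouts. In each of these genes at least 1 knockout value reached the control range. Hspb11 read 8.82 and 9.64 in controls and 9.23, 8.36 and 9.41 in knockouts, a difference of -0.23 with knockout replicate 2 and 0.09 without it.

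Among the genes of heat shock factors, Hsf4 (5.72 to 5.93) and Hsf5 (5.73 to 6.10) lay close to the filter on every array, and Hsf2bp, a meiotic binding partner of Hsf2, read 6.48 to 6.73. The Hsp70 exchange factor Hspbp1 read 8.59 and 9.27 in controls and 8.80, 8.09 and 8.80 in knockouts. Hspbap1, which binds Hspb1, read 8.61 and 7.65 in controls and 8.13, 8.69 and 7.87 in knockouts, and its probe sets ranged from 0.007 to 1.19 in knockout replicate 2. The groups overlapped for these 5 genes.

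**Figure D3:**
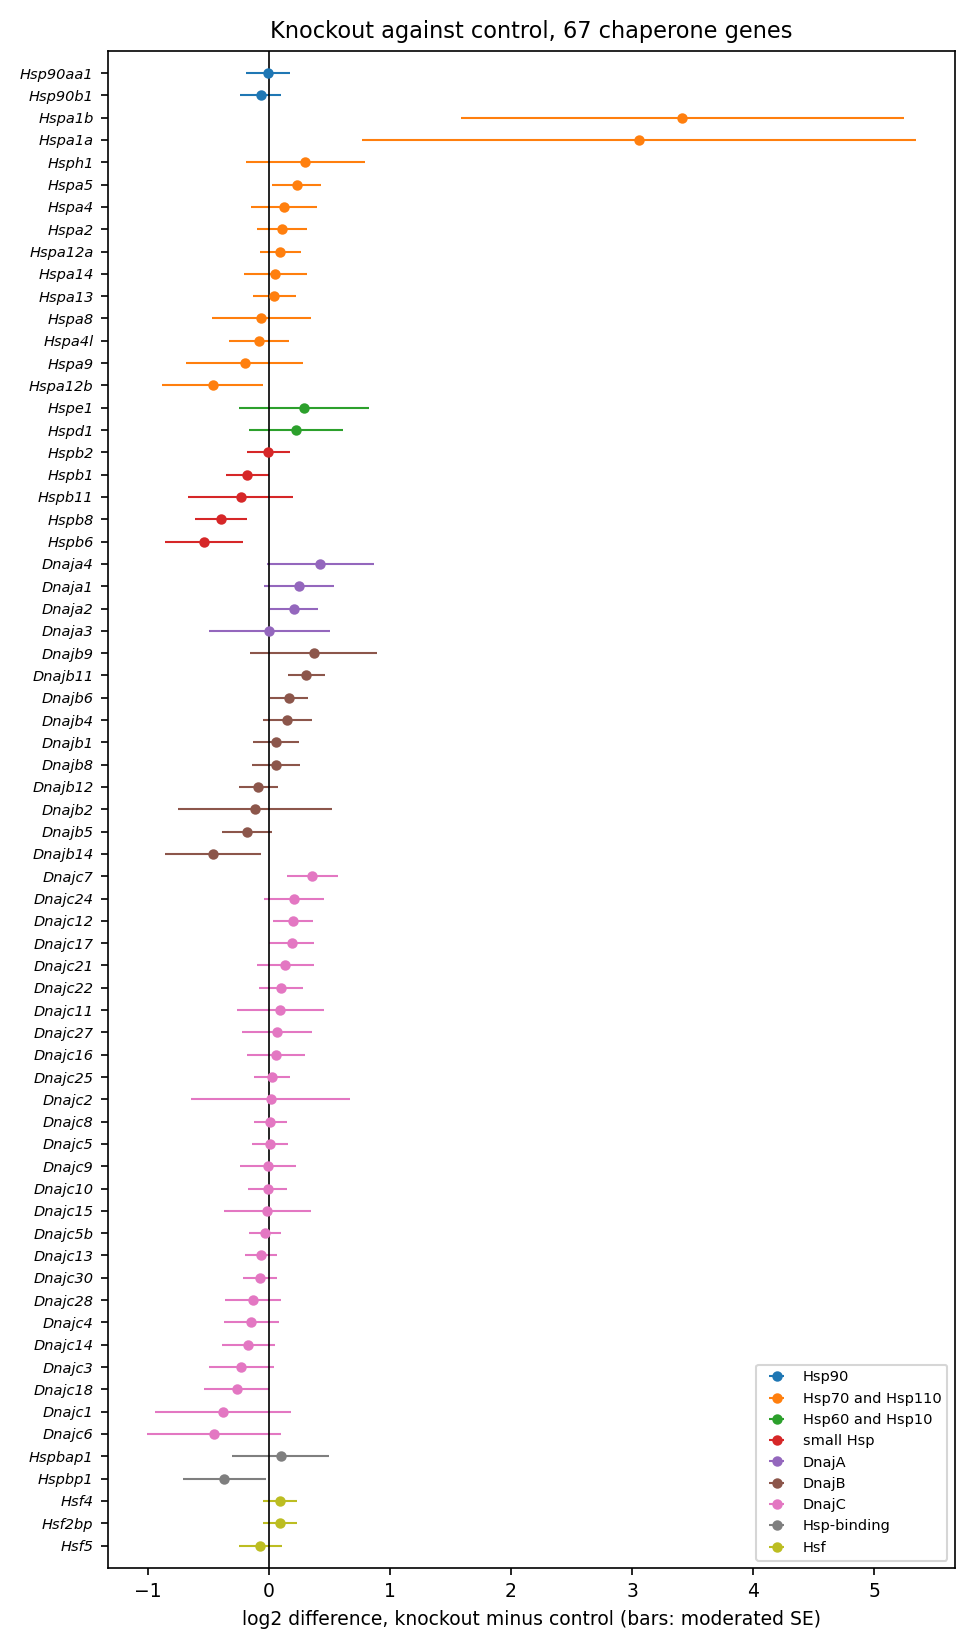
Log2 difference, knockout minus control (horizontal axis), with the moderated SE as bars, for 67 chaperone genes ordered by family (vertical axis, colours). Hspa1b (3.42) and Hspa1a (3.06) lie far to the right with SE of 1.83 and 2.29, and the others lie between -0.53 and 0.43.

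Over the whole set, knockout replicate 2 lay at least 1 above every other array for 3 members (Hspa1a, Hspa1b and Dnajb9; 4.48%), against 3.6% of all genes. It lay at least 1 below every other array for 2 (Dnajc6 and Dnajc1; 2.99%), against 3.83%. Both shares were near the background. It was the lowest of the 5 arrays for 28 of 67 members, against 40.5% of all genes, and the highest for 16, against 26%. The members' median in that array was -0.10 relative to the others, against -0.072 for all genes. With cyclic loess it was 0.046, against 0.0094 for all genes. By family, its medians were -0.44 over 13 Hsp70 and Hsp110 genes, -0.88 over the Hsp60 and Hsp10 genes, -0.23 over 26 DnajC genes and 0.11 over 10 DnajB genes. With cyclic loess these were -0.17, -0.56, -0.033 and 0.21.

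**Figure D4:**
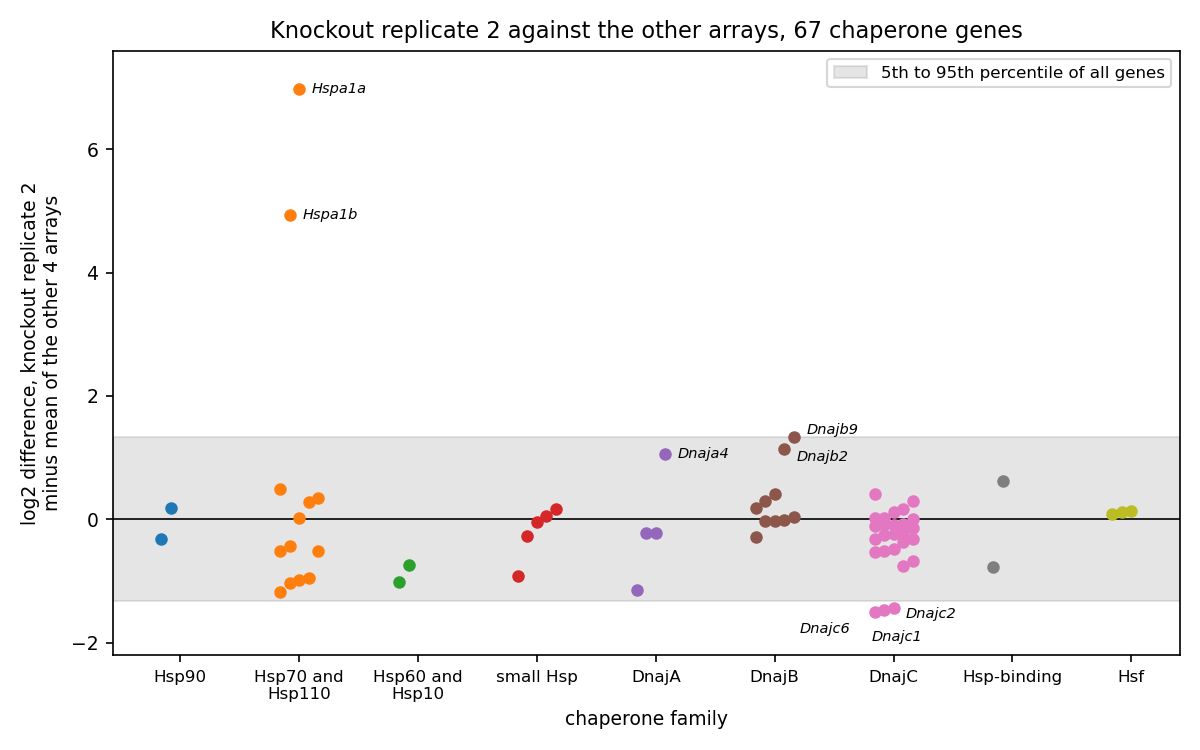
Log2 difference of knockout replicate 2 from the mean of the other 4 arrays (vertical axis) for 67 chaperone genes by family (horizontal axis, colours), with the 5th to 95th percentile of all genes (-1.32 to 1.34) in grey. Hspa1a (6.99) and Hspa1b (4.94) lie far above the band and 3 DnajC genes just below it, while the other members lie within it or at its edge.

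Folding factors without a heat shock symbol were taken from 3 lists. Of 36 cytosolic cochaperones, TRiC subunits and prefoldins above the filter, 0 passed the limma test in either direction (0 at an unadjusted p under 0.05), with a median difference of 0.0051. Knockout replicate 2 was the lowest array for 26 of the 36, against 40.5% of all genes, with a median of -0.50. It was at least 1 below or above the others for 0, against 3.83% and 3.6% of all genes. Bag2, an Hsp70 exchange factor, gave -1.15 relative to the mean of the others there, the prefoldin gene Pfdn6 gave -1.08, the TRiC chaperonin gene Cct3 gave -1.05 and the Hsp90 immunophilin gene Fkbp4 gave -1.05. Bag3, which partners inducible Hsp70 and is an HSF1 target, read 7.44 and 7.45 in controls and 7.45, 7.57 and 7.33 in knockouts. In the 4 arrays without knockout replicate 2, both knockouts lay above both controls for 19 of the 36 (52.8%), against 13.9% of all genes, with a median difference of 0.25. The counts for this list were not repeated with cyclic loess. With the lowest 60% of probe sets left out, the median of all genes in knockout replicate 2 was -0.20, against -0.072 otherwise. Brighter genes thus ran lower in that array.

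Of 21 folding factors of the endoplasmic reticulum and mitochondria, 0 passed in limma (0 at an unadjusted p under 0.05), with a median of -0.031. In knockout replicate 2, Clpp, the mitochondrial protease, gave -1.56 relative to the mean of the others, Trap1, the mitochondrial Hsp90, gave -1.38 and Herpud1, which acts in ER-associated degradation, gave 0.84. Without that array 6 of the 21 lay above both controls and 1 below, against 13.9% and 13.4% of all genes, with a median of 0.0007. Of 10 regulators of the unfolded protein response, 0 passed (0 at an unadjusted p under 0.05), with a median of 0.026. Without knockout replicate 2 the median was -0.27, with 0 of 10 above both controls and 3 below, against the same 13.9% and 13.4%. Edem1, which sorts misfolded glycoproteins, read 10.04 and 9.75 in controls and 9.48, 11.24 and 9.47 in knockouts. Eif2ak3, the stress kinase PERK, read 9.16 and 9.00 in controls and 8.53, 10.24 and 8.95 in knockouts. These 2 of the 10 regulators lay at least 1 above every other array in knockout replicate 2, as Dnajb9 did, against 3.6% of all genes. Ppp1r15a, the phosphatase subunit GADD34, read 10.37 and 8.43 in controls and 8.21, 11.12 and 8.85 in knockouts, while Ddit3, which encodes CHOP, read 7.99 to 8.28 on all arrays.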

How the data were processed

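The authors deposited log2 intensities, 1 per probe set and array, for which the submitters' processing notes name RMA and Affymetrix Expression Console without a version. The RMA method removes background, gives all arrays one distribution and combines probes, so shifts shared by most transcripts are removed. Its median step left identical values on at least 2 arrays for 15 of the 67 tested members and 23.1% of all tested genes, which makes their spread too small. Per the labels, cRNA was amplified by 2 rounds of in vitro transcription, which favours 3' ends. Precision is set by the number of arrays.

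Of 45101 rows, 64 controls were left out, and 27022 of 45037 probe sets lay above the 40% with the lowest mean. Platform annotation gave 1 symbol to 34945 probe sets, several to 932 and none to 9160, and no gene was named from several. Tests of knockout against control used limma 3.58.1 (R 4.3.3; lmFit, eBayes, two-sided, Benjamini-Hochberg over all probe sets tested, threshold 0.05). Adjusted p-values and SE come from that fit, which was tested on simulated data. Knockout replicate 2 against the other 4 arrays has no test. Figures used matplotlib 3.10.9.

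Named genes were Zbtb7a, members whose groups did not overlap, members at least 1 log2 unit apart in knockout replicate 2, the brightest of each family, members whose probe sets differed by over 1, and up to 4 by p and 4 by size of each list of other folding factors. Other members were named for their role after their values were seen. The members and lists were chosen with earlier results of these data known.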

Additional observations from a re-analysis of the deposited data

How the results depend on the processing

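In limma, 0 members and 0 probe sets were called under every alternative run: a robust limma-trend prior, all probe sets kept, the lowest 60% removed, weighted arrays, both other scalings, the replicate block, each array left out, and for members also their probe sets averaged or those named _x_at and _s_at dropped. The members' median difference ranged from -0.0049 to 0.078. The count of members whose groups did not overlap, 4 as reported, was 8 with cyclic loess and 7 with the mean of probe sets. The shares of all genes under those settings are not given, so a move of the members alone is not shown. The count was 6 to 27 as single arrays were left out, and with fewer arrays fewer orders are possible. Without knockout replicate 2 it was 20, and 20 with cyclic loess and 21 with median centring added, both chosen after seeing the data. For knockout replicate 2, the members' median was -0.22 with the lowest 60% left out and 0.046 with cyclic loess. The medians of all genes moved likewise, to -0.20 and 0.0094. Members at least 1 apart there, 5 as reported, numbered 3 with the mean of probe sets and 5 to 9 as other arrays were left out; the cause was not tested. Leaving out 1 control assumes that the other varies like the knockouts. Deviations from the group mean correlated at -0.54 between the replicates numbered 1 and at -0.57 between those numbered 2. The deviations of 2 controls mirror each other, so these correlations cannot tell whether equal numbers pair the samples. With a replicate block, which only knockouts 1 and 2 and the controls inform, 0 probe sets were called and Hspa1b differed by 4.86. Values near 5.77 are close to background, which limits the size given for Hspa1a.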

Other observations

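The J-domain gene Dnajc19, which encodes a subunit of the mitochondrial import motor, was left out of the members because its probe sets are annotated to the gene and a pseudogene together. The brightest of its 3 probe sets read 9.95 and 9.98 in controls 1 and 2 and 10.24, 9.10 and 10.20 in knockouts 1, 2 and 3. Knockout replicate 2 was the lowest array on each of the 3, at -0.99, -0.40 and -0.75 relative to the mean of the others. The differences between the groups were -0.12, -0.13 and -0.34, with no probe set on the array called by limma.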
